A study of Mus musculus with 16 samples.

Results

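The comparison described here asks whether the diet response of the heart depends on a working clock. It is the genotype by diet interaction, the HFD minus chow difference in Clock hearts minus the HFD minus chow difference in wild-type (WT) hearts. It was computed for all 22180 genes that have a probe set with exactly 1 gene symbol, on all 16 arrays of the series. The 16 mice were C57Bl/6J and fell into 4 groups of 4: WT on standard chow, WT on a high-fat diet (HFD), Clock on standard chow and Clock on HFD. Clock mice were homozygous for the delta 19 allele of Clock, and the labels name them transgenic. Every mouse had been on its diet for 24 weeks and was 32 weeks old when its myocardium was taken, 7 hours into the light phase. Each mouse gave 500 ng of total RNA and 1 Affymetrix array.

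CLOCK pairs with BMAL1, the product of Arntl, to switch on genes with E-boxes in their promoters. Among them are the Period and Cryptochrome genes, whose proteins block the pair, the REV-ERB genes Nr1d1 and Nr1d2, whose proteins repress Arntl, and the PAR bZIP factor Dbp. The delta 19 protein can still pair with BMAL1, but the pair is a weak activator. The heart burns mostly fatty acids, and a fatty diet is known to raise enzymes of their oxidation through PPAR receptors. An interaction above 0 means that the HFD minus chow difference was more positive in Clock hearts than in WT hearts, and below 0 the reverse.

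The labels name no tissue to which the allele is restricted. All hearts are from a single time of day, at which a shifted rhythm and a flattened rhythm cannot be told apart. The samples are bulk tissue, in which fewer cells of a type and less RNA per cell cannot be told apart. Every deposited value is a log difference between a heart and the median of that probe set in all 16 hearts. No source used here gives the base or the sign. Base 2 was assumed, with positive values read as more transcript. No level is left in such values, so the tissue label could not be checked against the level of cardiomyocyte markers. The mean of the 10 cardiomyocyte markers lay between -0.12 and 0.08 on all 16 arrays. WT chow replicate 2 stood apart in interferon-inducible genes, with a mean of 0.915 over that list against at most 0.203 on the other 15 arrays. Among WT chow hearts, replicate 4 had the highest mean of the list with Clock and Arntl (0.356, against -0.489 to 0.012 in the others). It had the lowest mean of the list with the Period and Cryptochrome genes (-0.099, against 0.367 to 0.717). Single clock genes are given below.

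The promoters of 3 clock genes are shown because the values of these genes are discussed below and because each holds a different site of the clock network. They are from RefSeq on GRCm38.p6, run from 250 bases before to 50 bases after an annotated start, and were read on the gene's strand. The Arntl window is chr7:113207261-113207560 on the plus strand, the second of 2 starts listed, and its capitals mark the core of the element bound by ROR and REV-ERB proteins, TAGGTCA. The Per3 window is chr4:151044616-151044915 on the minus strand, and its capitals mark 2 matches to the D-box TTATGNAA, the site of Dbp and Nfil3. The Ciart window is chr3:95882179-95882478 on the minus strand, and its capitals mark 3 copies of the E-box CACGTG, the site of CLOCK and BMAL1.
Arntl: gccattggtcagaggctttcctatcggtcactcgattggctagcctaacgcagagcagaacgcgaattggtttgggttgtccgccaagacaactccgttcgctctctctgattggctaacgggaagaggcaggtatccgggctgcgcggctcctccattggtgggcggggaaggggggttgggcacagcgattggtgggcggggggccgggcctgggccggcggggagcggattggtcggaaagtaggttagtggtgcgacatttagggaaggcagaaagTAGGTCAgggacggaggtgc
Per3: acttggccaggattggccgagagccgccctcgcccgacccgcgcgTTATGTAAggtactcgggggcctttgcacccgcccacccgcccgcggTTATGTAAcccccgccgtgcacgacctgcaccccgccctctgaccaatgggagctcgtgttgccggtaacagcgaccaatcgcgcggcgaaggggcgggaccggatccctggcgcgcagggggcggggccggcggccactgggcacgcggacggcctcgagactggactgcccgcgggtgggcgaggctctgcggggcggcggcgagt
Ciart: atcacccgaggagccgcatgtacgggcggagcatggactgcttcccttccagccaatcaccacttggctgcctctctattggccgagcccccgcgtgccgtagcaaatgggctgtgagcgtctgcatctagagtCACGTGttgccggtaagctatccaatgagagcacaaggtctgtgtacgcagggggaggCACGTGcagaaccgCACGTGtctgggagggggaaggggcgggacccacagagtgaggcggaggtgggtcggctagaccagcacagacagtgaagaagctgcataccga

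Searched on both strands, the E-box was in the window of 5 of the 18 clock genes with a listed promoter (27.8%) and of 8.09% of all 27025 genes in the promoter table. The D-box was in 2 (11.1%, against 3.99% of all genes) and the ROR and REV-ERB core in 2 (11.1%, against 2.97%). The cAMP response element TGACGTCA was in 1 (5.56%, against 2.03%). Among the 20 genes with the smallest interaction p described below, 15 had a listed promoter, of which 1 held the E-box, 1 the D-box, 0 the ROR and REV-ERB core and 1 the cAMP response element. These matches describe the letters of the windows and show no binding.

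No gene passed the interaction test. With limma and Benjamini-Hochberg adjustment over 22180 genes, 0 genes (0%) reached an adjusted p under 0.05. At an unadjusted p under 0.05 there were 562 genes above 0 (2.53%) and 560 below 0 (2.52%), together 5.06% of the genes tested. In bins of 0.05 along the p-value range, each bin held between 4.62% and 5.23% of the genes. The count of adjusted calls was also 0 under every other setting tried, the count at an unadjusted p under 0.05 then running from 4.55% to 7.51% of the features tested.

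**Figure D1:**
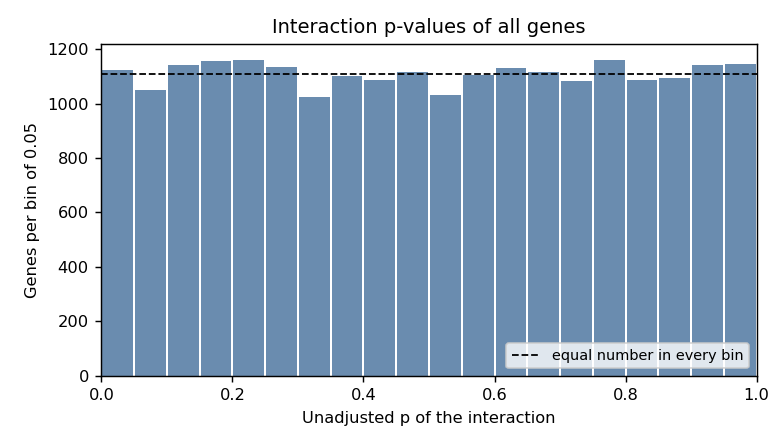
Histogram of the unadjusted limma p of the interaction for 22180 genes, in bins of width 0.05, with the number of genes on the y axis. The lowest bin holds 1122 genes, and the other bins hold between 1024 and 1160.

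The precision of the design sets what this count can show. The median standard error of an interaction was 0.0951, and the median 95% interval reached 0.201 to each side of the estimate. For 99.2% of the genes the interval reached less than 0.5 to each side. A gene with the median standard error would have needed an interaction of 0.678 to be the only gene called. Interactions beyond 0.5 in size were estimated for 63 genes and beyond 1 for 6 genes. An absent call therefore does not show that the response of a gene was alike in both genotypes.

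The diet itself moved genes in each genotype, and the genes it moved in both include enzymes that burn fat. In WT hearts 41 genes rose (0.185% of the genes tested) and 37 fell (0.167%) on HFD, together 78 (0.352%). In Clock hearts 11 rose (0.0496%) and 9 fell (0.0406%), together 20 (0.0902%). At an unadjusted p under 0.05, 5.55% of genes were higher and 5.1% lower on HFD in WT hearts, together 10.7%. In Clock hearts 4.63% were higher and 3.79% lower, together 8.42%. The counts themselves are not a test of the interaction, and both moved by over 1.5 times when single arrays were left out: from 28 without WT HFD replicate 4 to 90 without Clock chow replicate 4 in WT hearts, and from 6 without Clock HFD replicate 3 to 27 without WT chow replicate 4 in Clock hearts. In WT hearts 14 of the 78 calls were kept whichever array was left out, and in Clock hearts 6 of the 20. The diet differences of WT and of Clock hearts come from different arrays, and across the 22180 genes they correlated with Pearson's r of 0.35 and Spearman's rho of 0.26, a description over genes that are not independent. The 2 differences had the same sign for 57.6% of all genes, for 69 of the 78 genes called in WT hearts and for 20 of the 20 called in Clock hearts.

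**Figure D2:**
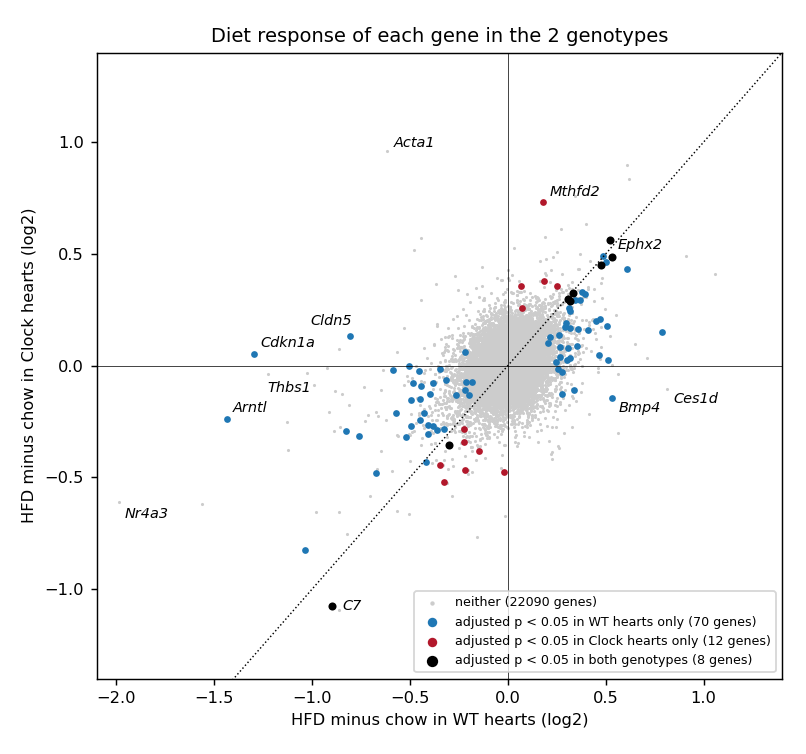
Each point is 1 of 22180 genes, with the HFD minus chow difference in WT hearts on the x axis and in Clock hearts on the y axis, both in log2 units. Colours mark genes called in WT hearts only, in Clock hearts only or in both, and points on the dotted diagonal have an interaction of 0. Arntl (-0.24 in Clock, -1.43 in WT hearts) lies far from the diagonal, and Ephx2 (0.48 and 0.53) lies next to it.

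The 8 genes called in both genotypes are named after their values were seen, and make up 10.3% of the WT calls and 40% of the Clock calls. Ephx2, the soluble epoxide hydrolase, which acts on fatty acid epoxides, lay between -0.36 and -0.12 in WT hearts on chow and between 0.25 and 0.39 in those on HFD. In Clock hearts it lay between -0.34 and -0.21 on chow and between 0.12 and 0.33 on HFD. Every HFD heart was above every chow heart. It rose by 0.53 ± 0.06 (SE) in WT and by 0.48 ± 0.06 (SE) in Clock hearts, and the 95% interval of the interaction ran from -0.22 to 0.13.

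Acadvl, Hadha and Acaa2, enzymes of the mitochondrial beta-oxidation of long-chain fatty acids, rose in both genotypes. Acadvl rose by 0.33 in WT and 0.32 in Clock hearts, with an interval of the interaction from -0.17 to 0.16. Hadha rose by 0.31 and 0.30 (interval -0.15 to 0.13), and Acaa2 by 0.32 and 0.29 (interval -0.17 to 0.12). Each interval is about as wide as the gene's diet difference. When each array was left out in turn, the WT calls of Hadha and Acaa2 passed in 16 of 16 fits and that of Acadvl in 14. The Clock calls passed in 10 fits for Hadha, 7 for Acaa2 and 6 for Acadvl (largest adjusted p 0.0883, 0.0903 and 0.122). Scn4b, a beta subunit of cardiac sodium channels, rose by 0.52 and 0.56, and Vwa8, a mitochondrial ATPase, by 0.48 and 0.45. Tgfb1, the matrix-inducing cytokine, fell by 0.30 in WT and by 0.36 in Clock hearts (interval of the interaction -0.20 to 0.09). C7, a late complement component, fell by 0.90 and by 1.07, and its interval was wider, from -0.70 to 0.35. Its calls passed in 6 of the 16 fits in WT hearts (largest adjusted p 0.104) and in 8 in Clock hearts (0.0888). Ephx2, Vwa8 and Scn4b passed in all 16 fits in both genotypes, and Tgfb1 in 15 in WT and 16 in Clock hearts. With the mean of the immediate early genes in the model, Ephx2 and Vwa8 were the 2 of the 8 that still passed in WT hearts. In Clock hearts all but Acadvl (adjusted p 0.0542) still passed in that model.

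Over the list of fatty acid oxidation, 23 of 24 members were measured. On HFD 6 rose in WT hearts (Acaa2, Acads, Acadvl, Cpt2, Etfdh and Hadha), 3 rose in Clock hearts (Acaa2, Acadvl and Hadha), and none fell in either. Over all genes 0.185% rose and 0.167% fell in WT hearts, and 0.0496% rose and 0.0406% fell in Clock hearts. Of the 6 WT calls, Acaa2, Cpt2 and Hadha passed whichever array was left out, while Acadvl passed in 14, Etfdh in 11 and Acads in 7 of the 16 fits. None of the 3 Clock calls passed in all 16. With the mean of the immediate early genes in the model none of the 6 passed in WT hearts, with adjusted p from 0.0608 to 0.175. Their WT differences in that model ran from 0.22 (Etfdh) to 0.36 (Acads), against 0.22 and 0.37 without that mean. In Clock hearts Hadha (adjusted p 0.0342) and Acaa2 (0.0499) passed in that model, and Acadvl did not (0.0542). Without that mean, Cpt2, the inner carnitine palmitoyltransferase, gave 0.26 in Clock hearts with an adjusted p of 0.0619. The median diet difference of the 23 was 0.16 in WT and 0.20 in Clock hearts, against -0.00 and 0.00 over all genes. Their median interaction was 0.02, against 0.00 over all genes, and 0 of 23 had an interaction p under 0.05 without adjustment, against 5.06% of all genes. The 17 measured genes of PPAR-responsive lipid uptake gave medians of 0.12 in WT and 0.18 in Clock hearts, with 0 of 17 at an unadjusted interaction p under 0.05. Ucp3, the muscle uncoupling protein, had the smallest interaction p in that list, 0.39 ± 0.20 (SE) with a limma p of 0.0684.

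The genes with the smallest interaction p are given as values. None passed the adjusted threshold, and these genes were picked by that p, so their diet and genotype differences carry no independent support. Among the 10 below 0, Wipf3, which binds WASP proteins of the actin skeleton, had the smallest p of all genes. It lay at -0.01, 0.01, 0.10 and -0.10 in WT hearts on chow and at 0.26, 0.36, 0.39 and 0.34 in those on HFD. The Clock hearts lay at -0.02, 0.06, 0.05 and -0.03 on chow and at -0.09, -0.02, -0.13 and -0.14 on HFD. The 4 WT HFD hearts were above all 12 others, and the Clock groups overlapped. The interaction was -0.45 ± 0.07 (SE), with a limma p of 7.25e-06 and an adjusted p of 0.150. When each array was left out in turn it stayed between -0.48 and -0.42, with a lowest adjusted p of 0.0745.

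Bmp4, a secreted ligand of the BMP branch of the TGF-beta family, lay at 0.01, -0.05, -0.10 and 0.00 in WT hearts on chow and at 0.42, 0.60, 0.58 and 0.40 on HFD. The Clock hearts lay at -0.00, -0.03, 0.02 and -0.25 on chow and at -0.61, 0.00, -0.13 and -0.11 on HFD. The WT HFD hearts were again above all others, and Clock HFD replicate 1 was the lowest heart. The interaction was -0.68 ± 0.15 (SE; adjusted p 0.710), and -0.55 without Clock HFD replicate 1. Parp8, a mono-ADP-ribosyltransferase, ran the opposite way in the 2 genotypes: 0.26 in WT hearts and -0.17 in Clock hearts, an interaction of -0.44 ± 0.09 (SE). Kcnj10, an inwardly rectifying potassium channel, gave 0.17 and -0.29, an interaction of -0.46 ± 0.09 (SE). The other 6 below 0 were Zfp623, Arhgef33, Ccer1, Hook1, Snord70 and Fcho2, with interactions from -0.49 to -0.25.

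Above 0, Cdkn1a, which encodes the cell cycle inhibitor p21, had the largest interaction of the 10. It lay at -0.17, 0.00, -0.44 and 0.34 in WT hearts on chow and at -1.20, -1.42, -1.04 and -1.80 in those on HFD. Its values in Clock hearts were -0.10, 0.31, -0.00 and 1.16 on chow and 0.43, 0.47, 0.52 and 0.16 on HFD. The 4 WT HFD hearts were below all others, and the Clock groups overlapped. On HFD it fell by 1.30 ± 0.23 (SE) in WT hearts, and the difference was 0.05 ± 0.23 (SE) in Clock hearts, an interaction of 1.35 ± 0.33 (SE; adjusted p 0.760). The fall in WT hearts passed in 11 of the 16 fits that left out an array (largest adjusted p 0.0821). With the mean of the immediate early genes in the model the WT difference was -1.02 and did not pass (adjusted p 0.188).

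Cldn5, the tight junction protein of endothelial cells, lay between -0.16 and 0.24 in WT hearts on chow and between -0.93 and -0.65 on HFD. The Clock hearts lay between -0.03 and 0.61 on chow and between -0.02 and 0.81 on HFD, and the WT HFD hearts were below all others. The interaction was 0.94 ± 0.23 (SE). Mmp14, a membrane-anchored metalloproteinase, gave -0.45 in WT and -0.02 in Clock hearts, and its WT HFD hearts were below all others. Has2, a hyaluronan synthase, gave -0.50 and 0.00. Dpy19l3, a C-mannosyltransferase of the endoplasmic reticulum, gave -0.48 and -0.08, and its fall in WT hearts passed whichever array was left out.

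Mthfd2, the mitochondrial folate enzyme driven by ATF4, was the gene of the 10 whose larger diet difference was in Clock hearts and passed there. It lay at -0.26, -0.25, -0.37 and -0.22 in WT hearts on chow and at -0.02, 0.02, -0.12 and -0.25 on HFD. The Clock hearts lay at 0.47, 0.18, -0.18 and 0.17 on chow and at 0.87, 0.84, 0.98 and 0.88 on HFD. The Clock HFD hearts were above all others. It rose by 0.73 ± 0.10 (SE) in Clock hearts (adjusted p 0.00666), a call kept whichever array was left out, and the interaction was 0.55 ± 0.14 (SE; adjusted p 0.760). The other 4 above 0 were Ablim3, Bdh2, Cnnm4 and Shank3, with interactions from 0.29 to 0.38, none of which passed a diet test in either genotype.

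**Figure D3:**
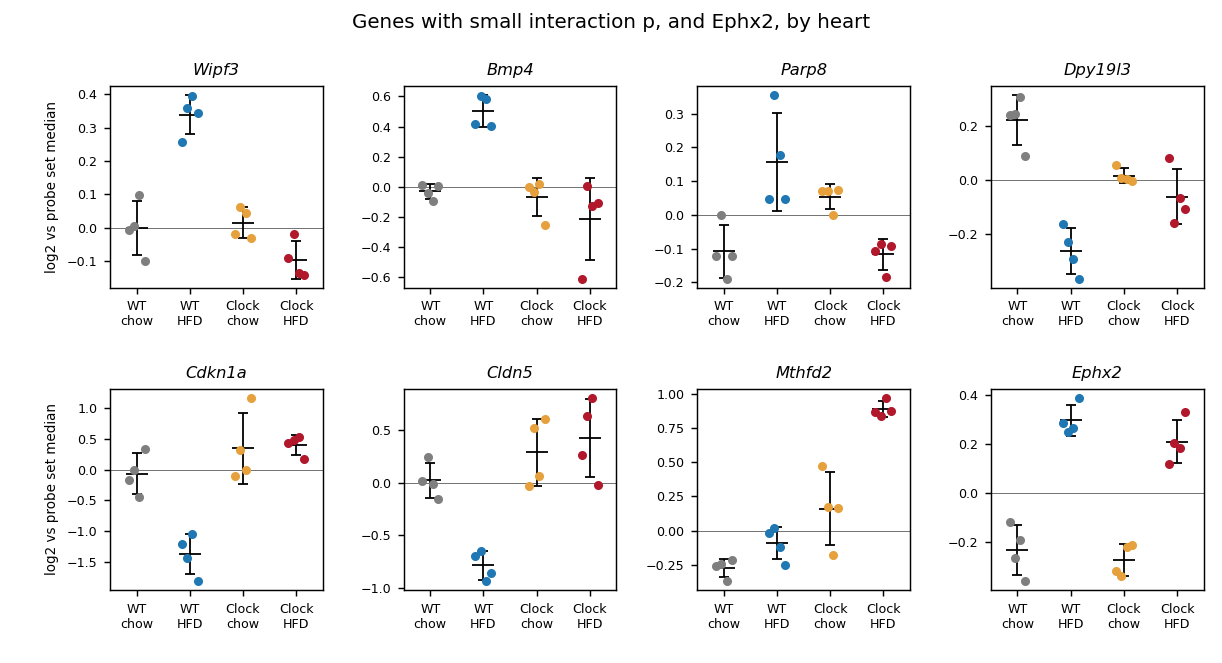
Value of each heart (points, log2 difference from the probe set median) for 8 genes in the 4 groups of 4, with the group mean and SD. Wipf3 and Bmp4 are highest, and Cdkn1a and Cldn5 lowest, in WT hearts on HFD. Mthfd2 is highest in Clock hearts on HFD, and Ephx2 is higher on HFD in both genotypes.

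The means of early gene and cell type lists are given here beside these values, and whether any gene followed them from heart to heart was not tested. The mean of the 28 measured immediate early genes, whose transcripts respond quickly to acute stimuli, ranged from -0.09 to 0.18 in WT hearts on chow and from -0.61 to 0.04 on HFD. In Clock hearts it ranged from -0.08 to 0.28 on chow and from -0.39 to 0.37 on HFD. Its lowest hearts were WT HFD replicates 4 and 1, and the list's median diet difference was -0.30 in WT and -0.09 in Clock hearts. Of the 28, 3 had a positive and 1 a negative interaction at an unadjusted p under 0.05 (14.3%, against 5.06% of all genes). With that mean as a covariate, the WT diet calls went from 78 to 12, of which 10 were among the 78, and the interaction of Cdkn1a from 1.35 to 1.17 and of Cldn5 from 0.94 to 0.76. In Clock hearts 10 genes were called higher and 10 lower on HFD with that covariate, and 15 of these were also called without it. The part of the early genes in the other values was not tested.

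The mean of the 14 endothelial markers ranged from -0.08 to 0.05 in WT hearts on chow and from -0.21 to -0.14 on HFD, and from 0.02 to 0.15 and -0.03 to 0.16 in Clock hearts. The WT HFD hearts were below all others in it. Of the 14, Cldn5 and Esam were above 0, and Emcn and Vwf below 0, at an unadjusted interaction p under 0.05 (28.6%, against 5.06% of all genes). Cldn5 is itself 1 of the 14, and the part of the endothelial markers in its value was not tested. Of the 7 mast cell markers, Cpa3 (-0.54 ± 0.14, SE) and Mcpt4 were below 0 at that p (28.6%), and the list mean ranged from -0.10 to -0.02 in Clock hearts on HFD against -0.01 to 0.13 in Clock hearts on chow. The means of the 12 fibroblast markers ranged from -0.24 to -0.08 in WT chow hearts and from -0.16 to 0.14 in WT HFD hearts, and 0 of 12 had an unadjusted interaction p under 0.05. The mean of the 6 measured lymphatic endothelial markers ranged from -0.14 to -0.04 in Clock hearts on HFD, wholly below its range of 0.08 to 0.11 in Clock hearts on chow. In WT hearts it ranged from -0.10 to 0.01 on HFD and from -0.03 to 0.18 on chow, which overlap, and Pdpn was the 1 of 6 (16.7%) at an unadjusted p under 0.05. The mean of the 7 mesothelial markers ranged from -0.08 to -0.00 in WT hearts on HFD, wholly below its range of 0.04 to 0.09 in WT hearts on chow. In Clock hearts it ranged from -0.09 to 0.03 on HFD and from 0.02 to 0.10 on chow. Wt1 and Krt8 were above 0 at that p (28.6%), but of the 7 interactions 3 were above 0 and 4 below, with a median of -0.04. Among the 7 measured white adipocyte markers, 1 was above 0 and 1 below at that p (28.6%). The part of the mast cell, fibroblast, lymphatic, mesothelial and adipocyte markers in the values of other genes was not tested.

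Among the 19 measured genes of the 4 clock lists, no interaction passed, and 5 had an unadjusted p under 0.05, which 5.06% of all genes had. Arntl had the largest. It lay at -0.32, -0.66, -1.34 and 0.54 in WT hearts on chow and at -1.54, -1.94, -2.12 and -1.93 in those on HFD. The Clock hearts were at 0.43, 0.37, 0.18 and 0.12 on chow and at 0.05, 0.09, 0.06 and -0.05 on HFD. All WT HFD hearts were below all others, and WT chow replicate 4 was the highest heart of all.

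Arntl fell by 1.43 ± 0.26 (SE) on HFD in WT hearts (adjusted p 0.0245) and gave -0.24 ± 0.26 (SE) in Clock hearts (adjusted p 0.889). The interaction was 1.20 ± 0.36 (SE; limma p 0.00449, adjusted p 0.793). Without WT chow replicate 4 it was 0.87 ± 0.24 (SE; adjusted p 0.700), and the fall in WT hearts was 1.10 with an adjusted p of 0.0293. The fall in WT hearts passed in 12 of the 16 fits that left out an array (largest adjusted p 0.0720). With the mean of the immediate early genes in the model the WT difference was larger, -1.63, but did not pass (adjusted p 0.0743). Read the other way, the Clock minus WT difference of Arntl was 1.92 on HFD (adjusted p 7.46e-04) and 0.72 on chow (adjusted p 0.309). Clock itself gave a diet difference of -0.32 in WT and -0.06 in Clock hearts, an interaction of 0.26 ± 0.11 (SE) that was 0.17 ± 0.09 (SE) without WT chow replicate 4. Npas2, the CLOCK paralogue, gave 0.19 and, without that heart, 0.01. Arntl2, the Arntl paralogue, gave 0.11 and 0.13.

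In the negative arm Per3 lay at 0.44, 0.61, 0.93 and -0.01 in WT hearts on chow and at 0.93, 1.22, 1.22 and 1.19 on HFD. The Clock hearts were at -0.41, -0.27, -0.18 and -0.35 on chow and at -0.45, -0.08, -0.30 and 0.01 on HFD. WT chow replicate 4 lay within the range of the Clock hearts. The interaction was -0.55 ± 0.21 (SE), -0.70 without WT chow replicate 3, the highest WT heart on chow, and -0.38 without replicate 4. Ciart, a repressor of CLOCK and BMAL1, gave -0.31 with all hearts and 0.04 without WT chow replicate 4, so its sign turned. Per1 gave 0.37 and 0.55, Cry1 -0.01 and -0.05, Cry2 -0.24 and -0.12, Bhlhe40 0.04 and 0.19, and Bhlhe41 -0.33 and -0.16, in the same order.

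Among the nuclear receptors, Rora, an activator of Arntl, gave -0.20 ± 0.07 (SE) and, without WT chow replicate 4, -0.17. Rorb gave -0.37 and -0.28. The repressors Nr1d2 and Nr1d1 gave -0.33 and -0.11, and -0.00 and 0.12. Dbp, the PAR bZIP activator, was at 1.71, 1.89, 2.29 and 0.37 in WT hearts on chow and between 1.86 and 2.45 on HFD, and in Clock hearts between -0.62 and -0.37 on either diet. Its Clock minus WT difference was -2.05 on chow and -2.73 on HFD. With the levels removed by centring, it could not be checked whether the Clock hearts lay near the lowest level the probe set can read. Without WT chow replicate 3, the highest WT heart on chow, the interaction of Dbp was -0.92. It was -0.68 ± 0.39 (SE) with all hearts and -0.28 ± 0.19 (SE) without WT chow replicate 4. Tef gave -0.19 and -0.12, although its 2 probe sets differed (-0.32 and -0.06). Hlf gave -0.27 and -0.18, and Nfil3, their repressing rival, 0.10 and 0.05. Without WT chow replicate 4, 14 of the 19 clock genes had a smaller interaction in size, and 3 rather than 5 had an unadjusted p under 0.05 (Arntl, Per3 and Rora). Leaving out WT chow replicate 3 instead made the interactions of Arntl, Per3 and Dbp larger in size, as given above. The same held for Clock (0.33), Npas2 (0.36), Ciart (-0.53), Nr1d2 (-0.45) and Hlf (-0.38). No count over the 19 genes was made for that fit.

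**Figure D4:**
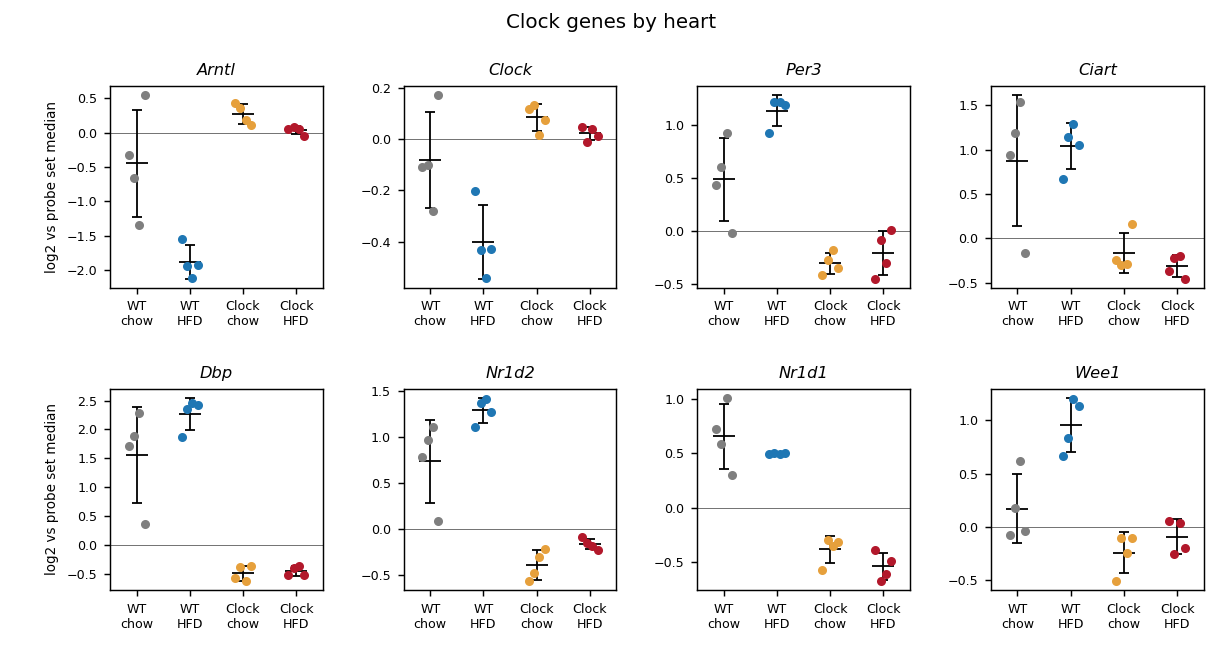
Value of each heart (points, log2 difference from the probe set median) for 8 clock genes in the 4 groups of 4, with the group mean and SD. Within WT hearts on chow, replicate 4 lies apart from the other 3 for Dbp (0.37, against 1.71 to 2.29) and Ciart (-0.17, against 0.94 to 1.53).

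Among clock-controlled output genes, Wee1, a kinase that delays entry into mitosis, rose by 0.79 in WT hearts (adjusted p 0.0338) and gave 0.15 in Clock hearts. Its interaction was -0.64 ± 0.21 (SE; adjusted p 0.867), and its rise in WT hearts passed in 10 of the 16 fits that left out an array. It did not pass without WT chow replicate 4 (0.72, adjusted p 0.114) or with the mean of the immediate early genes in the model (0.90, adjusted p 0.0943). Of the 14 measured output genes, Cdkn1a and Wee1 had an unadjusted interaction p under 0.05 (14.3%, against 5.06% of all genes).

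The remaining lists had 0 interaction calls, and most had medians close to that of all genes. Glucocorticoid and FOXO targets had a median interaction of 0.15, with 2 of 21 above 0 and 1 below at an unadjusted p under 0.05 (14.3%). Inflammatory cytokine and adhesion genes had a median of 0.12, with 1 of 21 above 0 and 1 below at that p (9.52%). Heat shock chaperones had a median of 0.10, with 2 of 23 above 0 at that p (8.70%). In the list of fetal and stretch-responsive cardiac genes, 2 of 18 were above 0 and 2 below 0 at an unadjusted p under 0.05, which is 22.2% against 5.06% of all genes. The median interaction of the list was 0.14, against 0.00 over all genes. Acta1, skeletal alpha-actin, which the stressed heart re-expresses, had the largest estimate of all genes. It lay at 0.46, 0.38, -0.16 and 0.24 in WT hearts on chow and at 0.19, -0.59, -1.43 and 0.28 on HFD. The Clock hearts were at -1.09, -0.26, -0.78 and -1.47 on chow and at -0.36, 0.16, 0.17 and 0.27 on HFD. Diet groups overlapped in both genotypes, and the interaction was 1.57 ± 0.44 (SE; adjusted p 0.760). The natriuretic peptide genes Nppb and Nppa gave 0.87 ± 0.41 (SE; limma p 0.0475) and 0.77 ± 0.46 (SE; limma p 0.117), so Nppa was not under 0.05 even without adjustment. The 2 members of the list below 0 at an unadjusted p under 0.05 are counted above and not named. Of the 9 skeletal muscle markers, Acta1 was the 1 with an unadjusted p under 0.05 (11.1%).

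Ces1d, a lipase of triglyceride stores, had the smallest p among 17 lipid droplet and lipolysis genes. It lay at 1.37, 1.43, 1.63 and 0.36 in WT hearts on chow, between 1.90 and 2.24 on HFD, and between -0.65 and -0.36 in Clock hearts on either diet. WT chow replicate 4 was again the lowest WT heart. The interaction was -0.92 ± 0.26 (SE; adjusted p 0.760), and -0.64 ± 0.11 (SE; adjusted p 0.258) without that heart. Without WT chow replicate 3 it was -1.06. The Clock minus WT difference of Ces1d was -1.63 on chow and -2.55 on HFD. Whether the Clock hearts lay near the lowest level the probe set can read could not be checked, because centring removed the levels. Me1, the malic enzyme that supplies NADPH for lipid synthesis, rose by 0.47 in WT hearts and gave 0.21 in Clock hearts, an interaction of -0.26 ± 0.08 (SE; adjusted p 0.793). Its rise in WT hearts passed whichever array was left out.

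In the ATF4 list, 3 of 20 (Mthfd2, Chac1 and Aldh18a1) were above 0 and Ddit3 below 0 at an unadjusted p under 0.05, together 20% against 5.06% of all genes. Of 29 genes of matrix remodelling and TGF-beta signalling, Mmp14 and Thbs1 were above 0, and Bmp4 and Tgfbr2 below 0, at that p (13.8%). Of 21 collagens, Col4a1 and Col4a2, the basement membrane chains, were above 0 at that p (9.52%). Of 14 repolarising potassium channels, Kcna5, which carries an ultrarapid current, gave 0.49 ± 0.13 (SE; adjusted p 0.760), and Kcnj5 was below 0, the 2 at that p (14.3%). Respiratory chain genes had 2 of 41 (4.88%) at an unadjusted p under 0.05, both below 0, and a median interaction of 0.01. The 30 proteasome genes, the 25 of glucose use, the 15 of calcium handling and the 26 interferon-inducible genes had none.

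**Figure D5:**
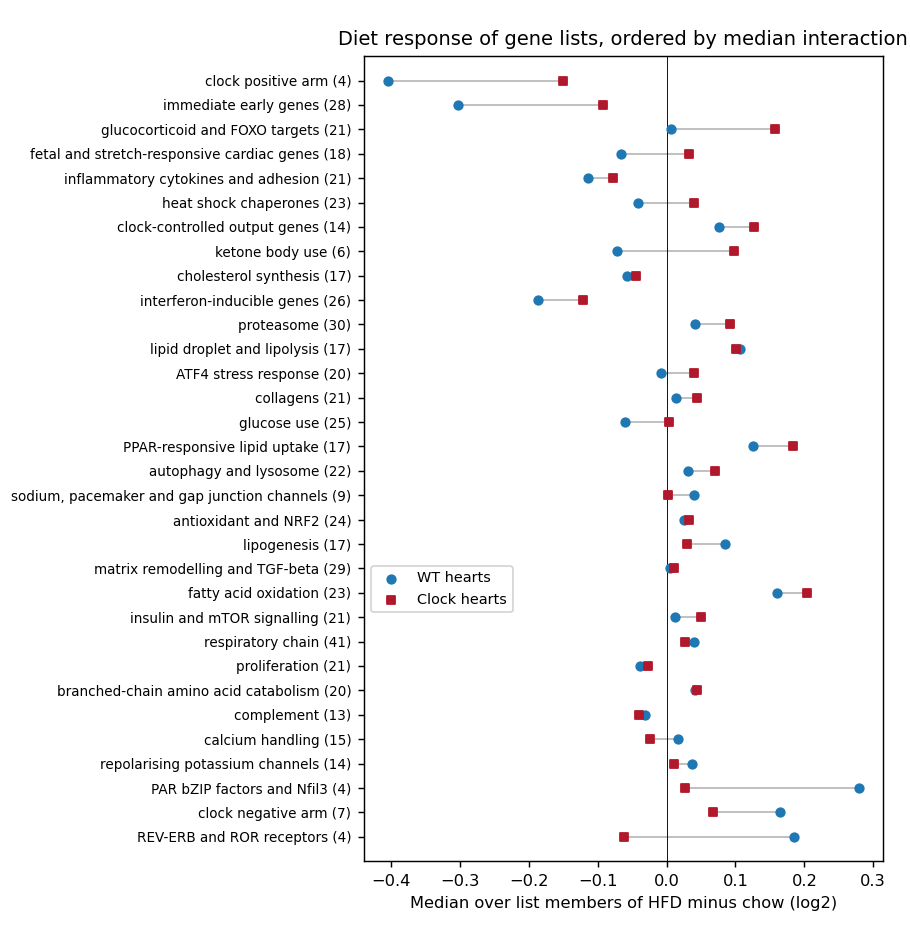
Median HFD minus chow difference (log2) of each gene list in WT hearts and in Clock hearts. Fatty acid oxidation lies at 0.16 and 0.20, and immediate early genes at -0.30 in WT hearts and -0.09 in Clock hearts.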

How the data were processed

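Myocardial RNA of 16 mice was read on 16 arrays, which the labels number as biological replicates. The authors deposited log2 values (base assumed) for 34351 probe sets, centred so that the median of every probe set is 0 (within 5e-07). No source used here gives the software, background correction or normalization. Probe sets with exactly 1 symbol (23521) were averaged into 22180 genes (1082 with more than 1), leaving out 1814 with several symbols and 9016 without a listed symbol. Symbols were checked against RefSeq (GRCm38.p6): 0 changed, and 193 probe sets had no match.

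The model was fitted in R 4.3.3 by limma 3.58.1 (functions lmFit, then eBayes, 1 mean per group over all 16 arrays, 12 residual and 4.16 prior degrees of freedom), with two-sided moderated tests and Benjamini-Hochberg adjustment over all genes. Intervals are 95%, for single genes. P-values measure the spread between these mice, and the number of arrays limits precision.

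The genes named were the 10 with the smallest interaction p of each sign (1 and 5 predicted genes skipped), all clock list members, and the member of every other list with the smallest p. Others were named after their values were seen. Members, the 51 gene lists (740 of 810 genes matched) and the rules were chosen with earlier results of these data known. Lists are described by counts and medians. Other settings were single probe sets, all probe sets, eBayes with trend and robust, array weights, repeated quantile normalization, a replicate block, an early gene covariate, only 1 genotype's arrays, and leaving out arrays. Dim probes could not be filtered, because centring removed the levels. Figures used Python 3.11.15 and matplotlib 3.10.9.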

Additional observations from a re-analysis of the deposited data

Results flagged for a closer look

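Among 348 groups of 4 hearts (87 named genes), 21 held a heart whose gap to the nearest other heart exceeded Dixon's 95% critical value as a share of the group's range, where chance flags about 1 in 20. In clock genes these were Per3 (0.93) and Dbp (1.86) in WT HFD replicate 1, Ciart in Clock chow replicate 4 (0.17), Rora in WT chow replicate 4 (-0.054) and Arntl2 in WT HFD replicate 4 (-0.16). In genes of fat use and metabolism they were Etfdh in WT chow replicate 3 (-0.21), Acaa2 in Clock HFD replicate 4 (0.23), Dbt in Clock chow replicate 3 (-0.17) and Mvd in WT HFD replicate 4 (0.23). In genes of small interaction p they were Parp8 in Clock chow replicate 3 (-0.00044) and Arhgef33 in WT chow replicate 3 (-0.10).

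In immune and blood cell genes they were Irf9 in Clock HFD replicate 1 (-0.031), Cd59a (-0.32) and Itgb3 (0.53) in Clock chow replicate 1, C7 in Clock chow replicate 4 (0.75) and Cpa3 in WT chow replicate 4 (-0.21). In the other lists they were Psmd3 in Clock HFD replicate 4 (0.27), Hrc in WT chow replicate 2 (-0.071) and in Clock HFD replicate 4 (0.034), Ctsl in Clock chow replicate 4 (-0.23) and Mcm3 in Clock HFD replicate 1 (-0.18).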

How the results depend on the processing

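The interaction had 0 calls under every setting, the replicate block included, and leaving out each array gave 0 calls each time, with 4.55% to 6.00% of genes at an unadjusted p under 0.05. Without WT chow replicates 2 and 4 together that share was 7.51%, still with 0 calls. The diet calls in WT hearts (78) were 40 with eBayes trend and robust, 41 with the replicate block, 12 with the early gene covariate, 11 without WT chow replicates 2 and 4, 15 with only the 8 WT arrays, and 28 to 90 when each array was left out. The diet calls in Clock hearts (20) were 8 with trend and robust, 53 with array weights, 43 with repeated quantile normalization, 12 with the replicate block, 7 with only the 8 Clock arrays, and 6 to 27 when each array was left out. The causes were not tested.

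Whether the replicate numbers pair the hearts was not settled. The 24 pairs with the same number correlated between -0.149 and 0.163 (median -0.020), with 3 over 0.1. The 72 other pairs correlated between -0.203 and 0.209 (median 0.00074). Of the 16 arrays, 7 were closest to their own number, and the count that unpaired hearts would give was not computed. Of the 20 genes with the smallest p, all kept an unadjusted p under 0.05 in 16 of 16 fits that left out an array. They were picked by p on these same arrays, so this was close to fixed in advance and lends them no support. The sign turned for these interactions, none of which had passed: without WT chow replicates 2 and 4, Ciart 0.057, Nr1d1 0.21, Slc4a1 -0.0018, Itgb3 0.0068, Acaa2 0.033, Acadvl 0.077, Ephx2 0.031, Hadha 0.038 and Vwa8 0.034. With repeated quantile normalization they were Bhlhe40 -0.0092, Acadvl 0.015 and Hadha 0.0088, with the early gene covariate Bhlhe40 -0.15, and with array weights Nr1d1 0.030. Leaving out each array, interactions ran from -0.058 to 0.032 for Acadvl, -0.094 to 0.19 for Bhlhe40, -0.53 to 0.040 for Ciart, -0.057 to 0.074 for Cry1, -0.051 to 0.019 for Hadha, -0.0087 to 0.17 for Nfil3, -0.12 to 0.12 for Nr1d1, -0.013 to 0.11 for Scn4b and -0.072 to 0.015 for Vwa8.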
